A study of Mus musculus with 2 samples.

Results

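The regions described are open chromatin peaks of genes that had several peaks, all of them distal. They were chosen by the deposited values themselves, as all distinct peaks of a gene symbol with 3 or more peaks, each with its midpoint over 10000 bp from the transcription start site (TSS) it was assigned to. Of 26232 distinct peaks, 1046 (3.99%) belonged to such genes, and these were 277 of the 15351 genes with a peak (1.80%). They made up 9.64% of all 10848 distal peaks, and their genes were 10.9% of the 2531 genes with 3 or more peaks. The number of peaks and their distance from the TSS are therefore given as a description only. Closest to the threshold were D830013O20Rik, Ankrd33 and Atxn7l1, with a nearest peak at 10002, 10116 and 10182 bp. Just outside were Eps8l3, 4921525O09Rik and 1700096P03Rik, with a nearest peak at 9878, 9660 and 9579 bp.

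The peaks come from ATAC-Seq, in which a transposase cuts accessible DNA, of mouse embryonic stem cells differentiated for 5 days into cardiac progenitor cells (CPCs). Both samples were replicates of 1 group, made with E14 Tg(Nkx2-5-EmGFP) cells at passages 16 to 20, in which a fluorescent reporter follows Nkx2-5, and neither carried a knockdown. The labels name the strain C57BL/6. The deposited list holds peaks found in both replicates but no height, p-value or value for either replicate, so the depth of each sample is unknown and neither a replicate error nor a test could be had. A peak missing from the list is not a measurement of closed chromatin. As a check of the label, 10 of 13 cardiac progenitor genes had a peak within 500 bp of an annotated TSS, including Isl1, Nkx2-5, Gata4, Gata6, Tbx5 and Tbx20. The same held for 2 of 4 pluripotency genes (Zfp42 and Esrrb), 0 of 4 blood genes and 0 of 4 liver genes. It also held for 3 of 4 neural genes, among them Pax6 and Neurog2, which act in neural progenitors. These counts do not set cardiac genes apart from neural genes. None of these marker genes was among the 277.

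Genes that direct development are often controlled by enhancers, stretches of DNA bound by transcription factors that can lie far from the TSS, upstream, within introns or in neighbouring genes. ATAC-Seq finds such elements because bound factors displace nucleosomes. The assay alone does not say which gene an element acts on, and assignment to the nearest TSS is a convention that can name a small noncoding gene lying inside a larger one.

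As examples of such distal regions, the central 200 bp of the widest peak are printed for Hand1 and Nr2f1, both cardiac regulators. The same is printed for 3 signalling genes of the group, all on the plus strand of mm9, 5′ to 3′. A gene's widest peak need not be typical of the group, where the median width was 905 bp. Capitals mark the letters of the 16 motifs searched, which are spelled out with the motif counts.
Hand1, chr11:57717871-57718070: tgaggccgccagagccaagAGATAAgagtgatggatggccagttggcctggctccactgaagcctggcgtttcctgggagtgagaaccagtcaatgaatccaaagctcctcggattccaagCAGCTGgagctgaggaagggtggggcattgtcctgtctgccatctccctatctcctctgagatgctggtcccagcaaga
Nr2f1, chr13:78349495-78349694: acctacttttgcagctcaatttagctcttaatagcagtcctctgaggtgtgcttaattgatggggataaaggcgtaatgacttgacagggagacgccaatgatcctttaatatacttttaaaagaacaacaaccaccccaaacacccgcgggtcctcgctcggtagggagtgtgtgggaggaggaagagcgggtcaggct
Wnt11, chr7:105964474-105964673: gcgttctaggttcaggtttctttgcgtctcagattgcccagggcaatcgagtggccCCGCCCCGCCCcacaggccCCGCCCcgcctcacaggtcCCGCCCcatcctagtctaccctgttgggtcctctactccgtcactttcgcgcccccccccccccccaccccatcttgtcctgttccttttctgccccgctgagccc
Wnt5a, chr14:29230527-29230726: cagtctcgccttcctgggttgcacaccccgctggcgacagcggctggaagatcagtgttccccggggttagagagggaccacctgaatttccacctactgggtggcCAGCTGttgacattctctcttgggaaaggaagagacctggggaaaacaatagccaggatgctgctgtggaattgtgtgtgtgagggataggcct
Inhbb, chr1:121285688-121285887: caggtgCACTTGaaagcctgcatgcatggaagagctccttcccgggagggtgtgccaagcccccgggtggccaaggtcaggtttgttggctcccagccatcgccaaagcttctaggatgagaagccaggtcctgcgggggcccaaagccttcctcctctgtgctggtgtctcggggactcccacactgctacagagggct

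The Hand1 region held 1 GATA motif and 1 E-box, and the Wnt5a region 1 E-box. The Inhbb region held 1 NKX2 motif, and the Wnt11 region 4 GC-boxes. In the Nr2f1 region none of the 16 motifs was found.

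For 6 further genes with 7 or more peaks, the same window is shown for the widest peak that held no annotated exon sequence there, which was the second widest for Ntm and Tns3.
Ntm, chr9:29292117-29292316: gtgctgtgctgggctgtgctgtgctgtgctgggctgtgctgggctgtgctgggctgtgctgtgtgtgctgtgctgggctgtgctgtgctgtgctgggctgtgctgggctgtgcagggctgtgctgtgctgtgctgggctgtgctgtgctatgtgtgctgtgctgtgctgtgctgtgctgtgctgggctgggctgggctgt
Tns3, chr11:8469712-8469911: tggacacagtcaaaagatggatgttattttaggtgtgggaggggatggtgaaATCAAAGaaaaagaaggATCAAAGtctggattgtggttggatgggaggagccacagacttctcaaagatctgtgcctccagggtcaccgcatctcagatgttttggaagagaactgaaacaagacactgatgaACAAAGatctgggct
Ly86, chr13:37544583-37544782: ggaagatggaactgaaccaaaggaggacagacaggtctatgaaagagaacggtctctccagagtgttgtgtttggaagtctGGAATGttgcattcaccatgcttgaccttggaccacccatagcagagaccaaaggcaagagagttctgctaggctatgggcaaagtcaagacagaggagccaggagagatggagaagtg
Gm13090, chr4:150760959-150761158: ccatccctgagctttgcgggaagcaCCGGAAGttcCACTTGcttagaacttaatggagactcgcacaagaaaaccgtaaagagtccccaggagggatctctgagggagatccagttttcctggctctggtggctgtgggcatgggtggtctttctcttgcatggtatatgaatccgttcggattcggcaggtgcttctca
A330074K22Rik, chr8:122859200-122859399: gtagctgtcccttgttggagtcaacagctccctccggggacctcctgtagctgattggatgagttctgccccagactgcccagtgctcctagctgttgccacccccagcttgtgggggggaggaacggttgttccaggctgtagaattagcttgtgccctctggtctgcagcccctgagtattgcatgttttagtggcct
Bcor, chrX:11582702-11582901: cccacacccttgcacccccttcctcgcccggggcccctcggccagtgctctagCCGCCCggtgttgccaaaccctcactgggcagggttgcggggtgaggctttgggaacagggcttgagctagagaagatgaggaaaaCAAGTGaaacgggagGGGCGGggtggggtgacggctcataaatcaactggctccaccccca

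Within these windows Tns3 held 2 TCF motifs and 1 SOX motif, Ly86 1 TEAD motif, Gm13090 1 NKX2 and 1 ETS motif, and Bcor 1 NKX2 motif and 2 GC-boxes. The Ntm window, a run of short repeated units, and the A330074K22Rik window held none of the 16.

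Most of the genes had few peaks. With 3 peaks there were 158 genes (57.0%), with 4 peaks 65 and with 5 peaks 32, while 22 genes had 6 or more. Ntm, which encodes the neuronal adhesion protein neurotrimin, had 11, and Casz1 and Tns3 had 9 each. The nearest peak of a gene lay at a median of 27040 bp from the TSS (quartiles 16384 and 48006 bp, maximum 537157 bp) and the farthest at a median of 116928 bp (quartiles 68046 and 193225 bp). Of the 1046 peaks, 333 (31.8%) lay over 100 kb from the TSS, against 18.6% of all other distal peaks. The share was 18.1% for genes with 1 or 2 distal peaks and 22.2% for distal peaks of genes with 3 or more peaks and a near one.

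**Figure D1:**
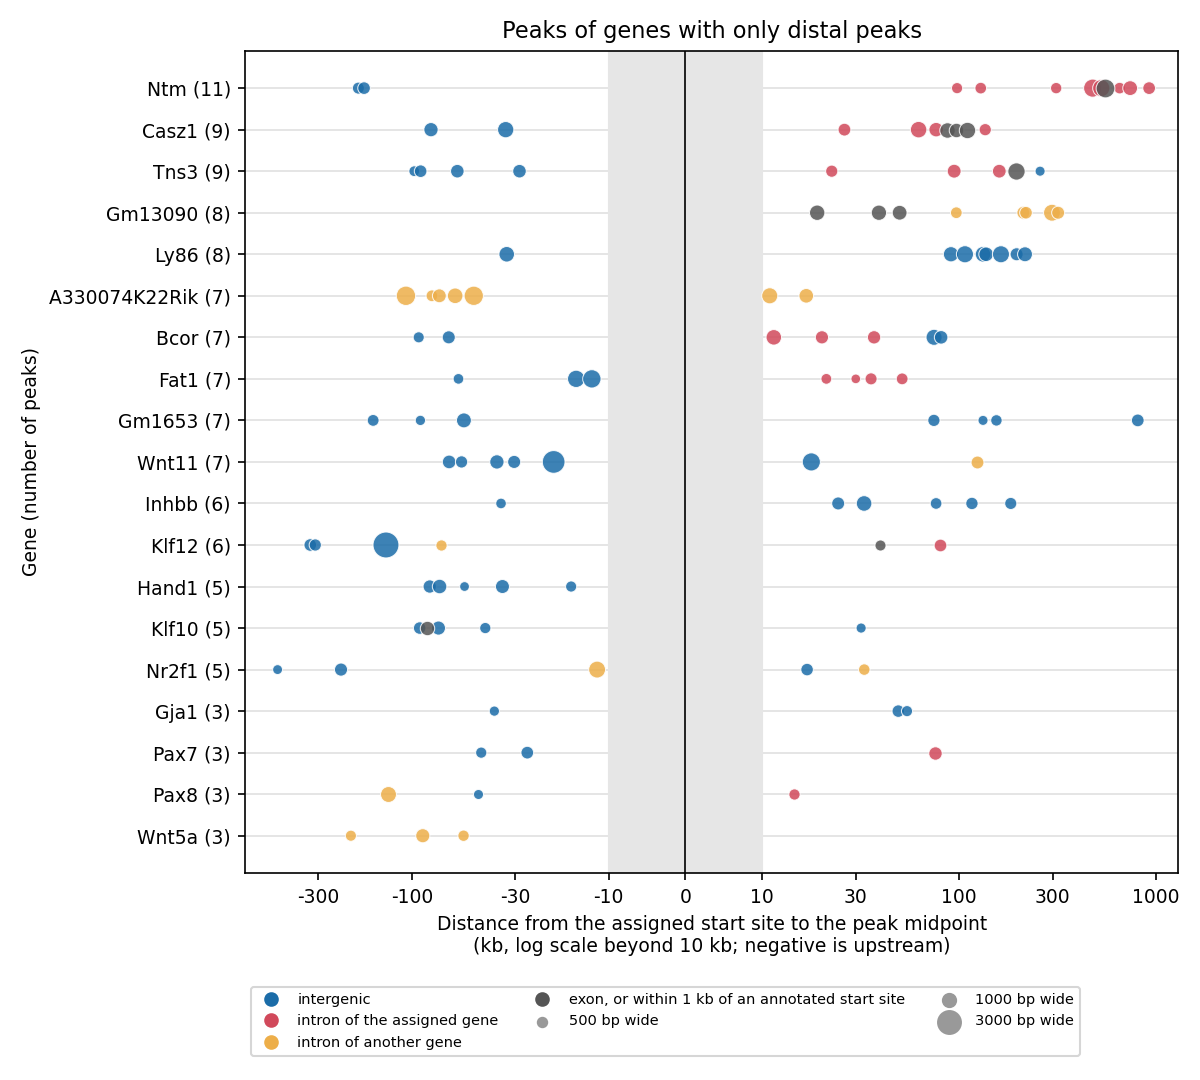
Signed distance in kb from the assigned TSS to the midpoint of each peak (horizontal axis, logarithmic beyond 10 kb, upstream to the left). Shown are selected named genes of the group and not all 277, with 1 line per gene and its number of peaks. For Bcor, Nr2f1 and Wnt11 the distances come from more than 1 start site and are drawn from a common origin. Point size is peak width and colour the GENCODE class of the midpoint. The grey band is the 10 kb on either side of the TSS that the rule leaves empty, all 5 peaks of Hand1 are upstream, and 9 of the 11 peaks of Ntm are downstream.

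Among cardiac regulators, Hand1, Nr2f1 and Casz1 belonged to the group. Hand1, a basic helix-loop-helix factor of the first heart field and extraembryonic mesoderm, lies on the minus strand of chromosome 11. Its 5 peaks were all upstream and intergenic, at 15525, 34671, 54015, 72321 and 81158 bp, with widths of 715, 1131, 550, 1210 and 1018 bp. The GATA motif was found in the central 300 bp of 3 of them, and the ETS and TEAD motifs in 2 each. GATA letters were in 14.5% of all peaks of the group and 16.0% of other distal peaks. In Lyzl1 and 4930503O07Rik they were in 4 of 5 peaks. With 5 peaks and 16 motifs searched, the Hand1 counts are a description only. No peak of any gene overlapped the 500 bp on either side of an annotated Hand1 TSS.

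Casz1, a zinc finger factor required for heart development, had 9 peaks over 216219 bp on chromosome 4. Upstream were 2 intergenic peaks, at 33379 and 79967 bp, and downstream were 7 peaks from 26258 to 136252 bp. Of these 4 lay in introns of Casz1, 1 in an exon, 1 within 1 kb of another annotated Casz1 TSS and 1 within 1 kb of the TSS of Gm15969. The peak at the other Casz1 TSS was 1206 bp wide and stood 96633 bp downstream of the TSS from which the deposited distances were measured. Casz1 was thus distal only with respect to that TSS. The GC-box was found in 5 of its 9 peaks. It was also found in 5 of 5 peaks of Runx3 and 5 of 6 of Gm3264, and no other gene of the group had as many such peaks.

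Nr2f1, an orphan nuclear receptor of atrial and neural development, had 5 peaks spread over 516366 bp of chromosome 13, with distances measured from 2 different start sites, 1 of them for 3 of the peaks. Upstream they lay at 11460, 229034 and 480838 bp and downstream at 16964 and 33104 bp. The nearest was also the widest, at 1642 bp, and lay in an intron of the noncoding gene A830082K12Rik. The peak at 33104 bp was in an intron of Fam172a and the other 3 were intergenic. The sequence within 500 bp of the Nr2f1 TSS was 76.8% GC, and its CpG ratio, the CpG count relative to that expected from base composition, was 0.86, with no peak over it.

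Signalling genes were represented by Wnt11, Wnt5a and Inhbb. Wnt11, a ligand of noncanonical Wnt signalling active in cardiac progenitors, had 7 peaks, 5 of them upstream between 19049 and 64663 bp. The Wnt11 distances were measured from 2 different start sites, 1 of them for 5 of the 7 peaks. The peak at 19049 bp was 2962 bp wide, the fifth widest of the group, and the peak 17826 bp downstream was 1890 bp wide, while the other 5 Wnt11 peaks were 867 to 1176 bp wide. The farthest, at 123932 bp downstream, lay in an intron of Uvrag. All 3 peaks of Wnt5a, a related noncanonical ligand, were upstream, at 54639, 88033 and 204035 bp, and all 3 lay in introns of Erc2, the neighbouring gene. The 6 peaks of Inhbb, which encodes the beta B subunit of inhibins and activins, were intergenic, with 1 upstream at 35251 bp and 5 downstream from 24402 to 183630 bp.

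The CpG ratio around the TSS was 0.82 for Wnt11, 0.78 for Wnt5a, 0.79 for Inhbb and 0.80 for Casz1, and 0.39 for Hand1. Of these 5 genes, only Casz1 had a peak over any annotated TSS.

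The other transcription factors of the group were picked out after their values were seen, apart from Klf10, Klf12, Foxe1, Pax7 and Pax8, which stood in the lists. Klf12, a Kruppel-like repressor, had 6 peaks, and the one 135376 bp upstream was 3869 bp wide. Klf10, a TGF-beta inducible Kruppel-like factor, had 4 of its 5 peaks upstream, at 42376 to 91293 bp. Homeodomain factors included Alx4, Pitx1, Lbx1 and Dbx1. The 3 peaks of Pitx1 were upstream at 16637, 92377 and 131899 bp and intergenic. Lbx1 had 5 intergenic peaks within 58645 bp, Alx4 had 2 of its 4 peaks in introns of Ext2, and Dbx1 had 4 of its 5 in introns of Nav2. Their start sites had CpG ratios of 0.69 for Alx4, 0.73 for Pitx1, 0.89 for Lbx1 and 0.64 for Dbx1, and none of them had a peak over it.

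Pax7, a factor of muscle stem cells, had 3 peaks, 2 upstream at 25927 and 44434 bp and 1 in its own intron 75795 bp downstream. Pax8, a factor of kidney and thyroid, had 3 peaks at 14596 bp downstream and 45915 and 132956 bp upstream, the last in an intron of Cacna1b. Foxe1, a thyroid forkhead factor, had 3 peaks, all upstream between 39035 and 66834 bp. Runx3 differed from these in having 3 of its 5 peaks in its own introns and 1 in its own exon, between 30005 and 54861 bp downstream.

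Only 1 gene of the contraction list, Gja1, was in the group. Gja1 encodes connexin 43, the main gap junction protein of working myocardium, and had intergenic peaks 38115 bp upstream and 49286 and 54573 bp downstream, of 602, 901 and 711 bp. Mir1a-2, which gives rise to a muscle microRNA and was picked after its values were seen, had 4 peaks, all upstream and intergenic, at 41455, 97558, 118376 and 119777 bp. Edn2 and Edn3, which encode endothelin ligands, were also picked after their values were seen, Edn2 with peaks at 10952 bp downstream and 12235 and 128679 bp upstream, and Edn3 with 3 peaks from 47548 to 137023 bp downstream.

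Over the 18 gene lists examined, cardiac regulators had 46 of 51 genes with a peak, 33 with 3 or more peaks, and 3 in the group, a share of 9.09% of those 33 against 10.9% over all genes with 3 or more peaks. For signalling ligands and receptors the group took 3 of 56 genes with 3 or more peaks (5.36%), for neural regulators 1 of 20 (Pax8), for synaptic and neural adhesion genes 2 of 19 (Ntm and Adgrl2), for cadherins 1 of 12 (Cdh26), for contraction genes 1 of 16, for skeletal muscle genes 1 of 2 (Pax7), and for SOX, KLF and forkhead factors 3 of 18 (Foxe1, Klf10 and Klf12). The lists of primitive streak and mesoderm regulators, pluripotency regulators, blood and endothelial genes, axon guidance genes, collagens, laminins and integrins, smooth muscle genes, ion channels and housekeeping genes held 9, 7, 6, 24, 17, 1, 14 and 2 genes with 3 or more peaks, and none in the group. Liver genes and Hox genes had no gene with 3 or more peaks.

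The 11 peaks of Ntm spanned 1113291 bp of chromosome 9, with 2 upstream of the gene and 9 downstream between 98021 and 926352 bp. The 3 widest of these, of 1887, 1710 and 2030 bp, stood at 478498, 529362 and 551131 bp, and the last was at another annotated TSS of Ntm. Tns3, which encodes the focal adhesion protein tensin 3, had 4 intergenic peaks upstream from 28407 to 97251 bp and 5 downstream, of which the widest, 1716 bp, was at another Tns3 TSS. Its 9 peaks included 4 with the TCF motif and 4 with the TEAD motif in the central 300 bp, and no other gene had as many with TCF. Fat1, an atypical cadherin, had 4 narrow peaks of 535 to 836 bp in its introns and 3 upstream, of 1929, 1720 and 656 bp at 12186, 14642 and 57984 bp. Adgrl2, an adhesion receptor, had 5 peaks, the widest of 2012 bp at another annotated TSS 35199 bp upstream, and Cdh26 had 4, all downstream and intergenic.

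Ly86, a cofactor of an innate immune receptor, had 8 peaks, all intergenic. One lay 32978 bp upstream and 7 lay between 91267 and 216934 bp downstream, with widths of 976 to 1684 bp. Bcor, an X-linked corepressor, had 7 peaks measured from 3 different start sites, of which 3 lay in its own introns. The 8 peaks of Gm13090 all lay in Camta1, 5 in its introns and 3 within 1 kb of its annotated start sites. Likewise the 7 peaks of the noncoding gene A330074K22Rik lay in introns of the long GENCODE model Gm20388, as did the 6 peaks of 1700018B08Rik.

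By the median distance of a gene's peaks, 5 genes lay farthest from the TSS. Gm10745 had its 3 peaks at 515486 to 631466 bp, and the nearest protein coding TSS of another gene was 829166 bp away. Gm20268 had 4 peaks from 350251 to 1472486 bp, Spanxn4 3 from 138695 to 796551 bp, 4933438B17Rik 4 from 265441 to 748647 bp, and Olfr1507 3 from 537157 to 866614 bp. Of these, Spanxn4 and Olfr1507 lay in sequence found more than once in the genome. In the median Olfr1507 peak 70.8% of sampled 32-mers occurred elsewhere, and the share was higher for Spanxn4.

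Repeated sequence touched other genes of the group as well. In 92 of the 1046 peaks (8.80%, 95% Wilson confidence interval 7.23 to 10.7%) more than 50% of sampled 32-mers occurred elsewhere in the genome, against 9.47% (8.33 to 10.8%) of peaks of genes with 1 or 2 distal peaks, 5.19% (4.63 to 5.81%) of distal peaks of genes with 3 or more peaks and a near one, and 1.89% of peaks within 10 kb of a TSS. The interval of the group overlapped that of the first of these classes. For 15 genes this held for the median peak. They included Gm3264, Gm3317, Gm3488, Gm10377, Gm10413 and 4930555G01Rik, all on chromosome 14, Sftpd and Olfr1507 on the same chromosome, and Gm3376 on chromosome Y, whose 4 peaks of 2083 to 6979 bp included the widest of the group. Reads from such loci cannot be placed with certainty, and their part in the widths of single peaks was not tested. Without these 15 genes, 262 genes and 992 peaks remained, and the median width was unchanged at 905 bp.

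The group was made up of 169 protein coding genes (61.0%, 55.2 to 66.6%), 75 long noncoding RNA genes (27.1%, 22.2 to 32.6%), 26 microRNA genes (9.39%, 6.49 to 13.4%) and 7 transcribed pseudogenes, by the RefSeq gene table. Among genes with 3 or more peaks of which at least 1 lay within 10 kb, 92.9% (91.8 to 93.9%) were protein coding and 1.64% (1.19 to 2.25%) were microRNA genes. Genes with 1 or 2 peaks, all distal, had 65.5% (63.2 to 67.6%) and 7.19% (6.08 to 8.47%). The makeup of the group was close to that of other genes without a near peak, and apart from that of genes with several peaks of which 1 was near. These intervals cover counting error only.

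Of the 94 peaks assigned to microRNA genes, 53 (56.4%) were in introns of another gene, against 29.6% for long noncoding RNA genes and 13.9% for protein coding genes. The examples that follow were picked after their values were seen. All 5 peaks of Mir6398 were in introns of Macf1, all 5 of Mir6368 in introns of 2610307P16Rik, 5 of 6 of Mir6995 in introns of Sh3pxd2a, and 4 of 6 of Mir582 in introns of Pde4d. The 4 peaks of Mir218-2 lay in Slit3, which encodes an axon guidance ligand, 3 in introns and 1 in an exon. For 24 of the 277 genes every peak was in introns of a single other gene.

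The protein coding TSS nearest to a peak was that of the assigned gene for 77.0% (73.7 to 80.1%) of the 653 peaks of coding genes and for 523 of all 1046 peaks (50.0%, 47.0 to 53.0%). The share over all peaks follows largely from the makeup of the group. A noncoding gene could match only where GENCODE classed it as protein coding. For noncoding genes the nearest coding gene was sometimes a member of the lists, and the cases given were picked after their values were seen. The 3 peaks of 4933432G23Rik had Eomes, a T-box factor of the primitive streak and cardiac mesoderm, as nearest coding gene at 62035 to 88368 bp. Of the 4 peaks of Gm4265, 3 had Fgfr2, a fibroblast growth factor receptor, at 148480 to 221099 bp. The 3 peaks of 1700016G22Rik had Klf6 at 36954 to 91710 bp, 3 of Mir6368 had Sox4 at 193024 to 321248 bp, and 3 of Plxna4os1 had Plxna4 at 57144 to 259871 bp.

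Peak midpoints were then placed in the GENCODE annotation. Intergenic sequence held 553 peaks (52.9%, 49.8 to 55.9%), introns of the assigned gene 162 (15.5%, 13.4 to 17.8%), introns of another gene 231 (22.1%, 19.7 to 24.7%), exons 21 (2.01%, 1.32 to 3.05%), and the 1 kb around another annotated TSS 79 (7.55%, 6.10 to 9.31%). In distal peaks of genes that also had a near peak among 3 or more, the shares were 50.2% (48.9 to 51.5%) intergenic, 28.1% (26.97 to 29.3%) in introns of the assigned gene and 12.1% (11.2 to 12.95%) in introns of another gene. For genes with 1 or 2 distal peaks they were 54.9% (52.9 to 57.0%), 13.7% (12.3 to 15.2%) and 19.6% (18.03 to 21.3%). Own introns thus held a smaller share in both classes without a near peak, with intervals that did not overlap those of genes with one. Within the group the share was 23.4% for peaks of protein coding genes, 2.89% for long noncoding RNA genes and 0% for microRNA genes. The classes differ in their makeup of such genes, as given above, and the part of this in the difference was not tested. Because 71 of the 277 genes were not found in GENCODE, the share in own introns was also taken over matched genes, where it was 20.8% (18.1 to 23.8%) against 29.4% (28.2 to 30.6%) for genes with 3 or more peaks and a near one. Peaks of 1 gene share its surroundings and are not independent, which these intervals do not cover.

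**Figure D2:**
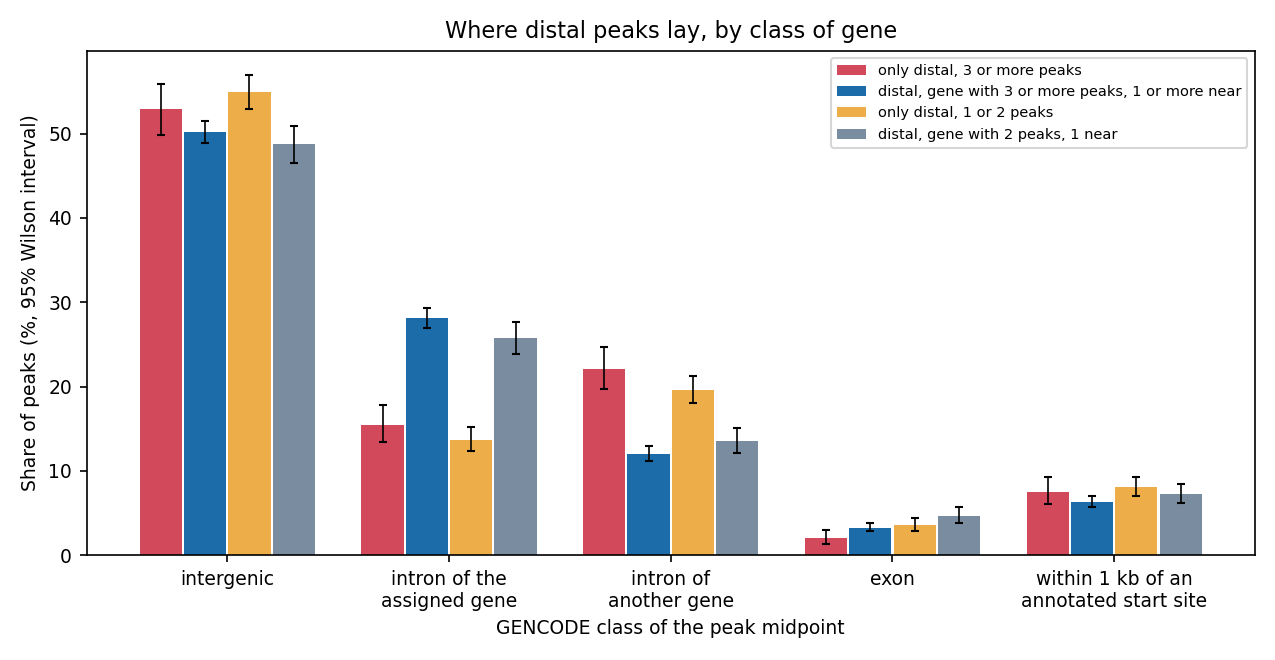
Share in percent of distal peaks (vertical axis) by GENCODE class of the midpoint (horizontal axis), for 4 classes of gene by number and nearness of their peaks, with bars for 95% Wilson intervals. Peaks of genes with 3 or more distal peaks only were in introns of the assigned gene in 15.5% and in introns of another gene in 22.1%, against 28.1% and 12.1% for genes with 3 or more peaks of which at least 1 was near. These classes also differ in their share of protein coding genes.

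Genes were arranged on one or both sides of the TSS. Upstream peaks numbered 463 (44.3%, 41.3 to 47.3%), against 43.2% (42.3 to 44.2%) of other distal peaks. In 139 of the genes peaks lay on both sides, in 52 upstream only, as for Hand1, Wnt5a and Pitx1, and in 86 downstream only, as for Gm13090 and Edn3. The span from the first to the last midpoint of a gene had a median of 115262 bp (quartiles 54756 and 218881 bp). Genes with 3 peaks spanned a median of 88950.5 bp, against 45657 bp for genes with 3 peaks of which at least 1 was near, and with 4 peaks 117352 bp against 80046 bp. The span is made of the positions that the rule used, so these values are a description. Of 769 gaps between neighbouring peaks of a gene, 153, in 110 genes, were at most 10 kb between peak edges.

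The nearest protein coding TSS of another gene stood at a median of 69311 bp from the TSS of genes in the group (quartiles 22170.5 and 162040 bp, 275 genes with a TSS recovered from the distances). The median was 55447 bp for genes with 3 or more peaks and a near one, 36499 bp for genes with 1 or 2 distal peaks and 16906 bp for genes with a single near peak. The quartile ranges of these classes overlapped.

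To see whether the TSSs of these genes lay under any peak of the list, every annotated TSS was examined. Of the 206 genes found in GENCODE, 158 (76.7%, 70.5 to 82.0%) had no peak within 500 bp of an annotated TSS. In 26 (12.6%, 8.76 to 17.9%) one of the gene's own distal peaks covered another TSS of the gene, as in Casz1, Tns3, Ntm, Tox2, Cdon, Bach2, Dlg2 and Kalrn. In the other 22 (10.7%, 7.16 to 15.6%) the peak over the TSS was assigned to another gene. The peak over the Rpa1 TSS was assigned to Smyd4, that of Ints9 to Hmbox1, that of Dpcd to Poll and that of Thnsl1 to Enkur. The TSS from which the deposited distances were measured could be recovered for 275 of the 277 genes. It had the midpoint of a peak of another gene within 1 kb in 20 of these and within 10 kb in 32. Among genes with 3 or more peaks and a near one, 90.2% (88.9 to 91.4%) had a peak over an annotated TSS, and among genes with 1 or 2 distal peaks 17.3% (15.4 to 19.3%). The absence of a near peak of the gene itself was fixed by the rule.

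A TSS counted as CpG-rich where the surrounding 500 bp on either side were 50% GC or more with a CpG ratio of 0.6 or more. This held for 49 of 167 protein coding genes of the group (29.3%, 23.0 to 36.6%), against 70.8% (68.8 to 72.7%) of coding genes with 3 or more peaks and a near one and 23.4% (21.1 to 25.9%) of those with 1 or 2 distal peaks. Among noncoding genes of the group it held for 5 of 108 (4.63%, 1.99 to 10.4%). The rule left out genes with a near peak, and 65.9% of peaks within 10 kb of a TSS had a CpG ratio of 0.6 or more. The comparison with genes that had a near peak is therefore not independent of the rule. How far the lower share follows from it was not tested.

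**Figure D3:**
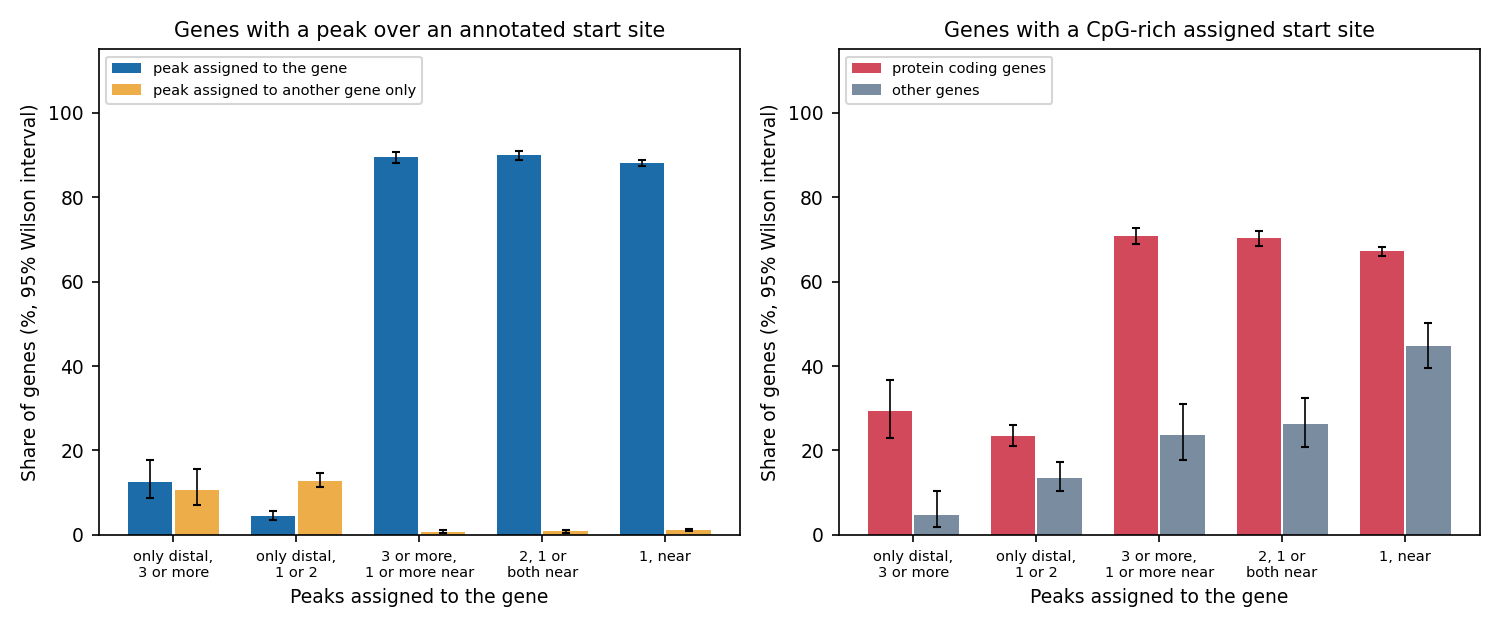
Left, share in percent of genes found in GENCODE with a peak over an annotated TSS, assigned to the gene or to another gene only. Right, share of genes with a CpG-rich assigned TSS, for coding and other genes. Classes on the horizontal axis give the peaks assigned to a gene and bars on the columns are 95% Wilson intervals. Coding genes with 3 or more distal peaks only had a CpG-rich TSS in 29.3%, against 70.8% for genes with 3 or more peaks and a near one. This comparison is not independent of the rule, which left out genes with a near peak.

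In base composition the peaks resembled other distal peaks, and in width they were close to them or slightly wider. Their median width was 905 bp (95% confidence interval of the median 885 to 931 bp, quartiles 732.25 and 1131.75 bp), against 899 bp (890 to 911 bp) for distal peaks of genes with a near peak among 3 or more, 849 bp (837 to 863 bp) for genes with 1 or 2 distal peaks and 1253 bp (1246 to 1263 bp) for peaks within 10 kb. The interval of the group overlapped that of the first class and lay above that of the second. It also lay above that of distal peaks of genes with 2 peaks of which 1 was near (857 bp, 840 to 871 bp). For all other distal peaks together the median was 878 bp (871 to 884 bp), again below the interval of the group. Within the group, the 29 peaks at another TSS of the assigned gene had a median of 1206 bp and the 50 at a TSS of another gene 1159 bp, against 881 bp for intergenic peaks and 872 bp for peaks in own introns. The median GC content of the central 300 bp was 54.0% (53.3 to 54.3%), against 53.7% for other distal peaks and 64.3% for near peaks. The CpG ratio was 0.22, 0.23 and 0.74 in the same order.

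**Figure D4:**
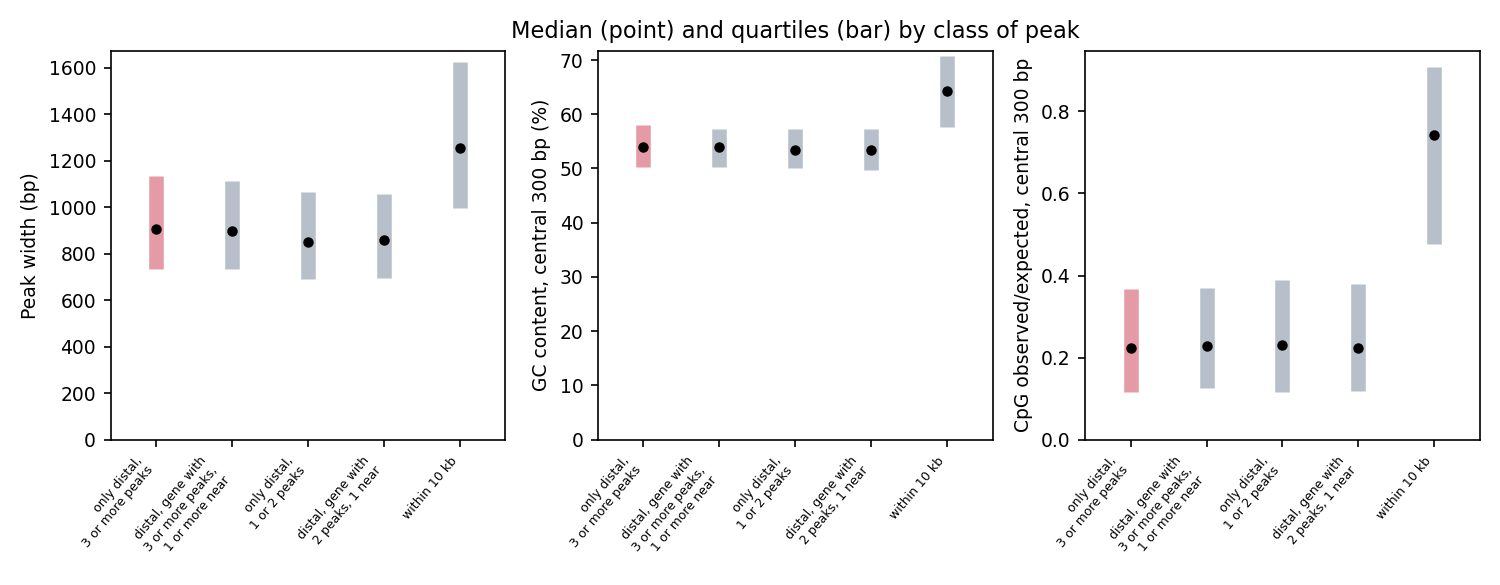
Median (point) and quartiles (bar) of peak width in bp, of GC content in percent and of the CpG ratio (observed over expected) of the central 300 bp, for 5 classes of peak. The 4 distal classes had median widths from 849 to 905 bp and median CpG ratios from 0.22 to 0.23, while peaks within 10 kb of a TSS had medians of 1253 bp and 0.74.

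The letters of 16 motifs were counted on both strands of the central 300 bp. For factors of cardiac progenitors these were AGATAA for GATA factors, CAAGTG for the homeodomain factors of the NKX2 class, CTAATG for ISL1 and related LIM homeodomain factors, AGGTGTGA for T-box factors, and the MEF2 motif, given by name alone. For more widely used factors they were TAATTA for homeodomain factors in general, CAGCTG for the E-box of basic helix-loop-helix factors, CATTCC for the TEAD factors of the Hippo pathway, CTTTGAT for the TCF and LEF factors of Wnt signalling, and TGANTCA for AP-1. Pluripotency and lineage factors were covered by ACAAAG for SOX factors, ATGCAAAT for the POU factors of the OCT class and GTAAACA for forkhead (FOX) factors. Letters common at promoters were GGGCGG for the GC-box of SP and KLF factors and CCGGAAG for ETS factors, and AGGGGGC stood for the insulator protein CTCF. Matches of different motifs could overlap. A match is a run of letters and not a measured binding site. TEAD letters were in 23.9% of peaks of the group (21.4 to 26.6%), E-boxes in 23.2% (20.8 to 25.9%), SOX in 21.3% (18.9 to 23.9%), GC-boxes in 19.8% (17.5 to 22.3%), NKX2 in 14.6% (12.6 to 16.9%) and GATA in 14.5% (12.5 to 16.8%). Over all peaks of the list the shares were 16.5%, 21.2%, 15.9%, 41.8%, 12.2% and 9.50%.

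Compared with other distal peaks, the intervals overlapped for all 16 motifs. GATA letters were in 16.0% (15.3 to 16.7%) of other distal peaks, NKX2 in 15.4% (14.7 to 16.1%), TEAD in 23.2% (22.4 to 24.0%) and ISL1 in 10.5% (9.94 to 11.2%), against 8.51% (6.97 to 10.4%) for ISL1 in the group. Peaks within 10 kb stood apart, with GC-boxes in 57.8% (57.0 to 58.6%), AP-1 letters in 4.48% (4.16 to 4.82%) against 9.27% (7.66 to 11.2%) in the group, and GATA letters in 5.01% (4.68 to 5.37%). The remaining motifs of the group were CTCF in 11.0% of peaks, ETS in 2.96%, homeodomain in 6.02%, FOX in 5.93%, TCF in 5.07%, MEF2 in 3.73%, OCT in 3.35% and T-box in 2.10%, against 13.1%, 8.42%, 3.00%, 3.62%, 2.98%, 2.76%, 1.94% and 1.16% of all peaks.

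**Figure D5:**
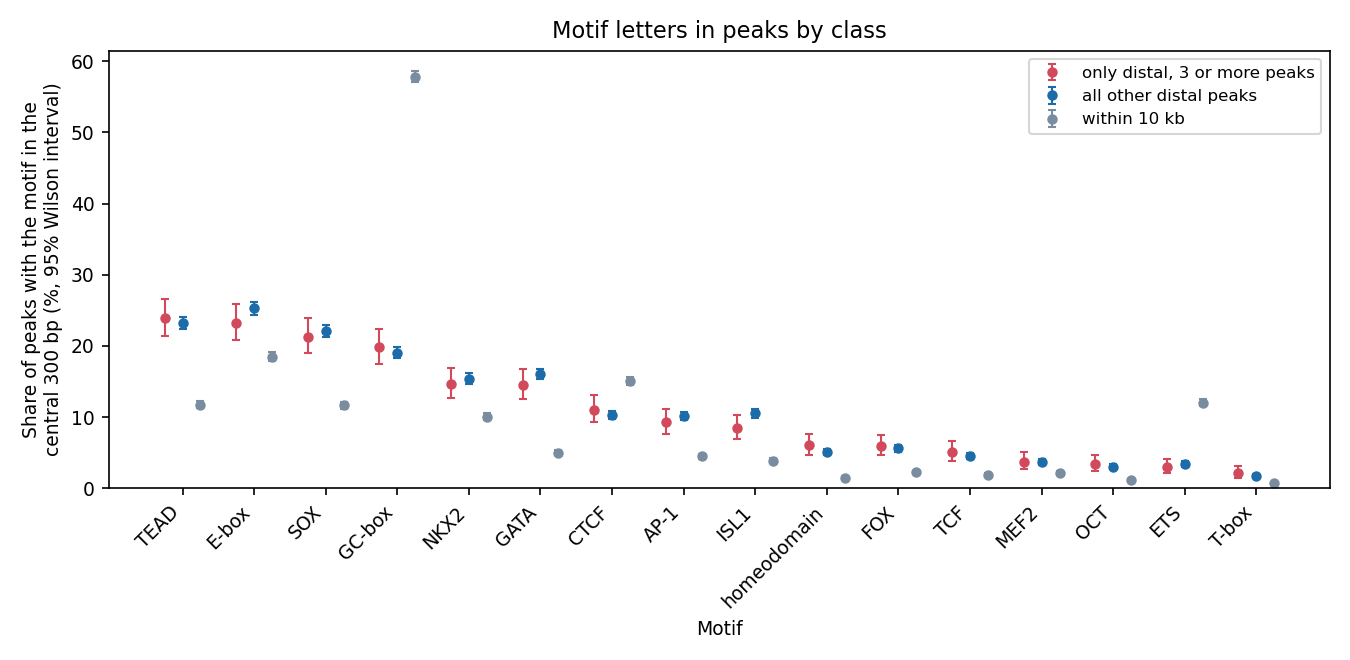
Share in percent of peaks with the letters of each of 16 motifs in the central 300 bp (vertical axis), with 95% Wilson intervals, for peaks of genes with 3 or more distal peaks only, all other distal peaks and peaks within 10 kb of a TSS. GATA letters were in 14.5%, 16.0% and 5.01% of peaks and GC-boxes in 19.8%, 19.1% and 57.8%.

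Counted per gene, 122 of the 277 genes (44.0%) had at least 1 peak with GATA letters, and 24 had 2 or more. Lyzl1 and the noncoding gene 4930503O07Rik had most, with 4 of 5 peaks each. NKX2 letters were found in 123 genes and ISL1 letters in 77, of which 5430421F17Rik and Smim23 had 3 such peaks. TEAD letters reached 4 peaks in Fat1, Tns3 and Ankrd55, and CTCF letters 3 in Ntm, Klf12, Runx3, Klhl35 and A330074K22Rik. A gene with more peaks has more chances to hold a motif, so these counts describe genes and do not rank them.

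Along the chromosomes the group was uneven. It took 16.4% of all distal peaks on chromosome 13, 15.4% on chromosome 14, 14.0% on chromosome 19 and 13.1% on chromosome 7, but 3.11% on chromosome 17 and 6.44% on chromosome 2, against 9.64% over all. On chromosome 14 the 23 genes included the multicopy loci named above. Chromosome X held 3 genes with 13 peaks, and chromosome Y 1 gene with 4.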

How the data were processed

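ATAC-Seq was performed on 2 replicate samples of day 5 CPCs. Per the study's methods, the authors aligned reads to mm9 with bowtie2, filtered them with samtools, removed duplicates with Picard 1.136, called peaks per replicate with MACS14 and dropped ENCODE blacklist regions. Peaks sharing 1 bp or more with one of the other replicate were retained by bedtools 2.15. Nearest TSSs were assigned with HOMER, a step given for ChIP-Seq peaks. No correction for the Tn5 cut position is described. A peak's width therefore follows the coordinates of 1 replicate and its depth.

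The deposited list has 6 columns, with position, distance to a TSS, accession and symbol, on 26429 lines. Each distinct peak was counted once. Positions are 1-based on mm9. Sequence came from NCBIM37 (the same build), gene models from GENCODE vM1, in which 206 of the 277 genes were found by symbol or synonym, and biotypes from RefSeq (GRCm38.p6, names only). The TSS of a gene was recovered from peak midpoints and deposited distances. In 258 genes all distances came from 1 TSS, and for 131 genes it lay within 1 bp of a GENCODE TSS of the gene. Motifs were counted in the central 300 bp of each peak. Repeats were measured on sampled 32-mers.

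The peaks, the 18 gene lists (14 to 132 genes) and the motifs were chosen with earlier results of these data known. Named genes were the 12 with most peaks, list members, the 5 with the largest median distance, the 5 with the widest peak and those next to the threshold, and every other gene named was picked after its values were seen. Windows holding an exon were not printed. One marker gene and one sequence are not reported here. Shares carry 95% Wilson intervals and medians binomial order-statistic intervals, computed in Python 3.11 with scipy, for counting error only. The scripts were tested on simulated peaks. Isl1 knockdown samples were not analysed here.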

Additional observations from a re-analysis of the deposited data

How the results depend on the processing

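Neither replicate could be left out, since the deposited peaks carry no replicate values. No paired analysis was possible because both samples belong to 1 group. Of 52 alternative values for 9 results other than motif shares, 41 stayed within the interval of the reported value, or within 1.5 times a count, and 11 moved. The moved values follow the rule's own settings in most cases. Only peaks wider than the list median gave 51 genes and 181 peaks, and 31 of these genes were among the 277. A distance over 20000 bp gave 179 genes and 671 peaks. Requiring 2 or more peaks per gene gave 727 genes and 1946 peaks. Requiring 4 or more gave 119 genes and 572 peaks, with a median span of 163459 bp. Assigning peaks to the nearest GENCODE protein coding TSS gave 183 genes, of which 83 were among the 277. That setting changed the annotation and left out noncoding genes, 108 of the 277, and their parts cannot be told apart. With the 5′-most coding TSS only, 17.1% of genes had a peak over a TSS. Motif shares depend on window length, and all 16 moved when whole peaks were searched. Leaving out genes in repeated sequence was chosen after seeing the data and moved no value. Unknown depth limits what a missing peak can show.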
